A study of Mus musculus with 28 samples.

Results

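The MHC class I presentation pathway was followed through 10 genes of the 25719 counted in mouse tail tendon. They were chosen by name, because the Fosl2 transgene of these mice is driven by an MHC class I promoter. Earlier results of these data were known when they were chosen. The 10 genes were the heavy chains H2-K1, H2-D1 and H2-T23, the light chain B2m, the peptide transporter subunits Tap1 and Tap2, the loading factor Tapbp, the immunoproteasome subunits Psmb8 and Psmb9, and the transactivator Nlrc5. All 10 passed the filter on low counts in every comparison.

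RNA was sequenced from homogenized tail tendon fascicles of 28 mice labelled as C57BL/6 (C57Bl6/J per the study's reporting summary), with 1 library per mouse. Fosl-2(Tg) mice carried a randomly inserted vector holding the murine Fosl2 gene under the class I promoter H2Kb, with eGFP joined in frame behind a self-cleaving peptide, and non-transgenic mice of the same breeding were the WT controls. The early cohort (6 to 8 weeks of age) held 7 WT and 8 Fosl-2(Tg) mice, all male, and the established cohort (older than 14 weeks) held 6 WT and 7 Fosl-2(Tg) mice with 1 male in each genotype, so stage and sex could hardly be told apart. Class I promoters are active in most nucleated cells, and which tendon cells expressed the transgene was not measured here. Libraries held 9645598 to 66894396 counted reads, with a median of 18685759, and levels are given as CPM, the share of a gene in the counted reads of its library after TMM scaling between libraries. The TMM factors were 0.731 to 1.04 in early WT and 0.694 to 0.927 in early Fosl-2(Tg) mice. They were 1.03 to 1.10 in established WT and 1.19 to 1.45 in established Fosl-2(Tg) mice, without overlap. No fold change was fitted without scaling between libraries. The 12 tendon fibroblast markers were all detected in each group and summed to 101870 CPM or more in every WT and every early mouse. In the established Fosl-2(Tg) mice they summed to 7313 to 81321 CPM, against 101870 to 192852 CPM in the established WT mice. In bulk tissue, fewer cells of a type and less RNA per cell cannot be told apart.

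MHC class I molecules show peptides from inside the cell to CD8 T cells and NK cells. The proteasome cuts proteins into peptides, TAP1 and TAP2 carry them into the endoplasmic reticulum, tapasin (Tapbp) helps to load them, and the heavy chain reaches the surface with beta-2 microglobulin (B2m). Interferon-gamma raises most of these genes, partly through NLRC5, and exchanges 3 catalytic subunits of the proteasome for the immunosubunits Psmb8, Psmb9 and Psmb10.

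Of the 10 genes, 8 lie on chromosome 17, while B2m is on chromosome 2 and Nlrc5 on chromosome 8. On GRCm39 the processing genes form a run in which Psmb9 (34400960 to 34406738, minus strand) is followed by Tap1 (34405996 to 34416199, plus strand), Psmb8 (34416690 to 34420428, plus strand) and Tap2 (34422501 to 34435829, plus strand). Psmb9 and Tap1 overlap head to head, B2m overlaps Patl2 on the other strand and Tapbp overlaps Zbtb22, and the library kit does not mark strand, so reads in these stretches are uncertain. Class I heavy chain genes also share long stretches of sequence, and how reads mapping to several of them were counted is not given in the sources used here. Promoter windows of 250 bases before the RefSeq start (GRCm38.p6) were available for 8 of the 10 genes. They are shown for both classical heavy chains, for their light chain B2m, and for Tap1 and Psmb8, whose genotype effect differed between cohorts. Psmb9 differed too, and its window is not printed because it lies largely within that of Tap1. Capitals mark the letters searched on both strands, namely AANNGAAA (the interferon response element core), GGGNNTTCC (kappaB), TGACG (the core of the X2 box) and TTCNNNGAA (GAS, the site of STAT dimers).
H2-K1, chr17:34000348-34000597, minus strand: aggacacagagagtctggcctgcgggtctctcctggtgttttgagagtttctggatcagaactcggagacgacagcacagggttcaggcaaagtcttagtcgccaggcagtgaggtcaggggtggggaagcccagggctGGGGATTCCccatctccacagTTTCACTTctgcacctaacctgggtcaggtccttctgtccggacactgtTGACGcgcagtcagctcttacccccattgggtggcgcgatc
H2-D1, chr17:35262844-35263093, plus strand: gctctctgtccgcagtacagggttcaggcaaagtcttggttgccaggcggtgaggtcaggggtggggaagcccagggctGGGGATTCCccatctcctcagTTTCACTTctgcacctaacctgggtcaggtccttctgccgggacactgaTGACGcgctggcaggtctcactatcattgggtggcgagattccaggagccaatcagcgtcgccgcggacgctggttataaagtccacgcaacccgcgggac
B2m, chr2:122147437-122147686, plus strand: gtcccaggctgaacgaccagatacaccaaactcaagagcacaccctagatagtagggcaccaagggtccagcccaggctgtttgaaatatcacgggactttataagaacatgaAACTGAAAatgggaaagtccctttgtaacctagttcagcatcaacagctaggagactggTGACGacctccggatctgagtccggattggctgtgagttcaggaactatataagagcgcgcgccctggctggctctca
Tap1, chr17:34187306-34187555, plus strand: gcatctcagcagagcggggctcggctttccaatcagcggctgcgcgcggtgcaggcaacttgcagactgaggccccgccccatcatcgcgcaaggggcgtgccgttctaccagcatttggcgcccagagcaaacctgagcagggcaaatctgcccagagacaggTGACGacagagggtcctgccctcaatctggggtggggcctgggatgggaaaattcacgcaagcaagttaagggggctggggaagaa
Psmb8, chr17:34197945-34198194, plus strand: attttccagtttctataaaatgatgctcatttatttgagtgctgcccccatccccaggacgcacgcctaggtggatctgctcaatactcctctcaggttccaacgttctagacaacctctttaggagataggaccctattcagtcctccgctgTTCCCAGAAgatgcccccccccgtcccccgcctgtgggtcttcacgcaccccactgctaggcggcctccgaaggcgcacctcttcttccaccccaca
The kappaB letters lay directly upstream of the interferon letters in both H2-K1 and H2-D1, and these windows were identical at 166 of 190 aligned bases (87.4%) when shifted by 60 bases. The Tap1 window shared 225 bases with that of Psmb9, read from the opposite strand, so both genes carried the same TGACG. AANNGAAA was found in 4 of the 8 windows (H2-K1, H2-D1, H2-T23 and B2m), against 21.6% of 27025 promoter windows of all genes. TGACG was found in 5 (H2-K1, H2-D1, B2m, Tap1 and Psmb9) against 17.9%, GGGNNTTCC in 2 (H2-K1 and H2-D1) against 4.88%, and TTCNNNGAA in 1 (Psmb8) against 7.18%. TGANTCA, the letters bound by AP-1 factors such as FOSL2, was in none of the 8 windows and in 6.87% of all windows. A match of letters is a description and not a binding site.

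The 10 genes covered a wide range of levels. Per kilobase of exon, H2-D1 was highest with a median of 75.7 CPM per kb over all mice, followed by B2m at 55.7, Tapbp at 36.1, H2-K1 at 16.4 and H2-T23 at 6.44 CPM per kb. Tap2 had a median of 2.57, Tap1 of 1.17, Psmb8 of 0.562, Nlrc5 of 0.355 and Psmb9 of 0.345 CPM per kb. In all 28 mice B2m lay above Tapbp, Tapbp above H2-K1, H2-K1 above H2-T23, H2-T23 above Tap2, Tap2 above Tap1 and Tap1 above Psmb8. The order was less fixed at the ends, since H2-D1 exceeded B2m in 21 mice, Psmb8 exceeded Nlrc5 in 25 and Nlrc5 exceeded Psmb9 in 17. H2-K1 rested on 507 to 3360 reads per mouse, whereas Psmb8 rested on 11 to 126 reads and Psmb9 on 3 to 119 reads.

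**Figure D1:**
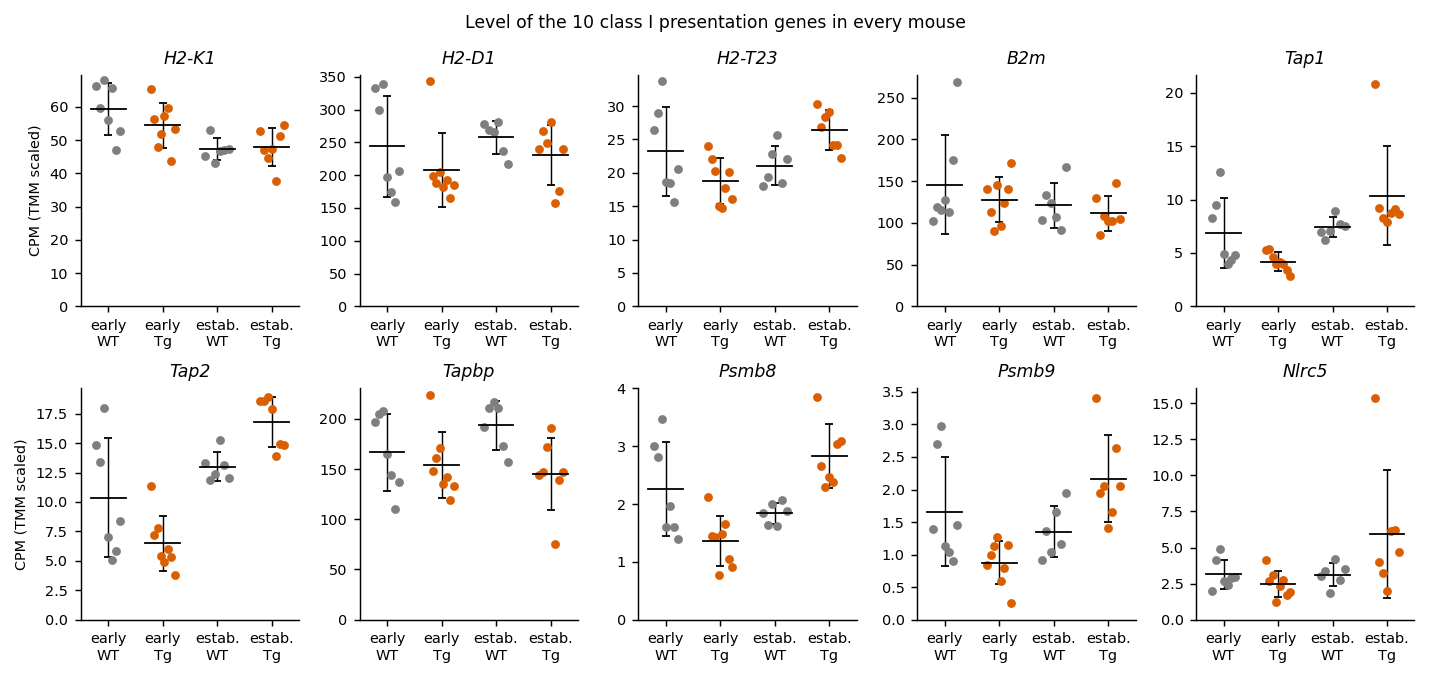
Levels of the 10 genes in each of the 28 mice, in CPM after TMM scaling on a linear axis that starts at 0, with WT mice in grey and Fosl-2(Tg) mice in orange; bars are the mean and the SD of a group. Mice are drawn from left to right in label order, and early WT mice 1 to 3 lie highest of their group for H2-D1, H2-T23, Tap1, Tap2, Tapbp and Psmb8.

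Expression of Fosl2 itself was examined first, since the transgene holds its exons, with truncated untranslated regions. Counts per gene do not separate reads of the transgene from those of the endogenous gene. It ranged from 58.8 to 136 CPM in the early WT mice (median 75.8), while the early Fosl-2(Tg) mice had 63.4 to 156 CPM (median 87.1). Established WT mice had 78.1 to 169 CPM (median 105) and established Fosl-2(Tg) mice 121 to 160 CPM (median 145). The genotypes overlapped in both cohorts. The log2 fold change of Fosl-2(Tg) over WT was 0.20 ± 0.24 (SE) in the early cohort (edgeR FDR 0.918) and 0.38 ± 0.15 in the established cohort (FDR 0.142). The summed Fosl2 count thus did not pass the test in either, and the level of the transgene alone was not measured.

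Next, the genotypes were compared within each cohort and the 2 effects with each other. In the early cohort all 10 genes had a log2 fold change below 0, and none passed an FDR of 0.05 with edgeR, DESeq2 or limma voom. At this threshold edgeR called 0.033% of 15138 genes lower. Tap1, Tap2, Psmb8 and Psmb9 were lower at an unadjusted p under 0.05, which 4.1% of all genes were. In the established cohort 7 of the 10 had a log2 fold change above 0, and Psmb8 and Tap2 rose, while 3.14% of 15862 genes were called higher and 3.37% lower. The effect of the genotype was more positive in the established than in the early cohort for Tap1, Tap2, Psmb8 and Psmb9, which passed the interaction test, as did 3.43% of 16082 genes in that direction. Over the 10 genes the median log2 fold change was -0.33 early and 0.35 established, beside -0.01 and 0.005 over all genes tested. The interaction calls rested on 3 control libraries: without early WT mice 1 to 3, none of the 10 genes and 170 genes in all passed it, against 1195 with them.

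**Figure D2:**
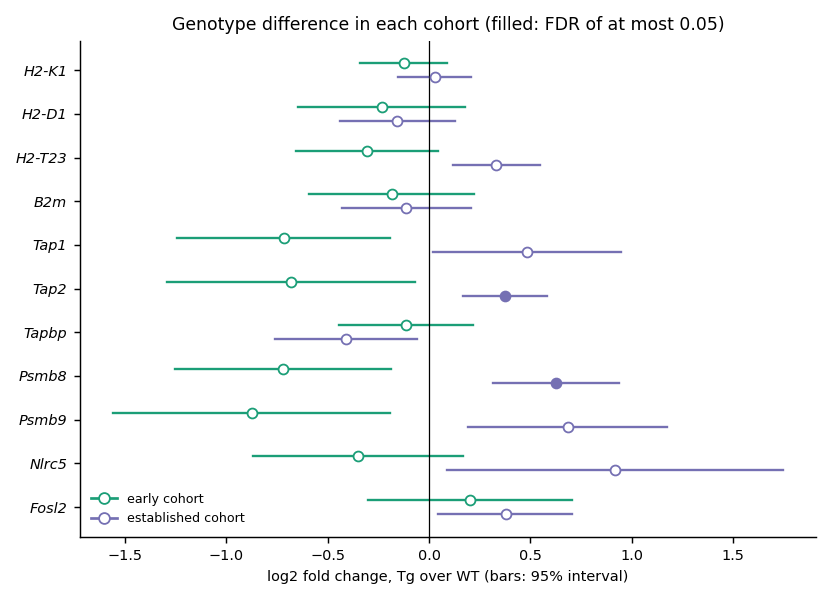
Log2 fold change of Fosl-2(Tg) over WT for the 10 genes and Fosl2 in the early cohort (green) and the established cohort (purple), with 95% intervals from edgeR; filled points passed an FDR of 0.05. All 10 genes lie left of 0 in the early cohort, and the filled points are Tap2 and Psmb8 in the established cohort.

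Among the heavy chains, H2-K1 encodes a classical chain and is the gene whose promoter (H2Kb) drives the transgene. Its lowest, median and highest levels were 47.0, 59.6 and 68.2 CPM in the early WT mice and 43.8, 54.8 and 65.5 CPM in the early Fosl-2(Tg) mice. At the established stage they were 43.3, 47.0 and 53.2 CPM in WT and 37.8, 47.3 and 54.6 CPM in Fosl-2(Tg) mice. The genotypes overlapped almost entirely at both stages. The log2 fold change was -0.13 ± 0.10 (SE; FDR 0.885) in the early cohort and 0.03 ± 0.08 (FDR 0.855) in the established cohort, with 95% intervals of -0.34 to 0.09 and -0.15 to 0.21.

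H2-D1, the other classical chain in the list, reached 159, 207 and 338 CPM as lowest, median and highest in the early WT mice and 165, 190 and 344 CPM in the early Fosl-2(Tg) mice. Early Fosl-2(Tg) mouse 1 alone held the 344 CPM, while the next highest mouse of its group had 204 CPM. Established values were 216, 268 and 280 CPM in WT and 158, 240 and 281 CPM in Fosl-2(Tg) mice, again with overlap. Fold changes were -0.23 ± 0.20 early (FDR 0.885) and -0.16 ± 0.13 established (FDR 0.463) on the log2 scale. B2m, the light chain that every class I molecule needs, ran from 103 to 269 CPM (median 118) in early WT and from 90.5 to 171 CPM (median 132) in early Fosl-2(Tg) mice. Established B2m levels ran from 91.5 to 167 CPM (median 116) in WT and from 85.0 to 148 CPM (median 104) in Fosl-2(Tg) mice. Its groups overlapped in both cohorts, and its log2 fold changes were -0.19 ± 0.19 (FDR 0.916) and -0.11 ± 0.15 (FDR 0.651).

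H2-T23 encodes Qa-1, a nonclassical chain recognised by NK receptors. It spanned 15.7 to 33.8 CPM (median 20.6) in early WT mice and 14.7 to 24.1 CPM (median 19.0) in early Fosl-2(Tg) mice. Established WT mice spanned 18.0 to 25.6 CPM (median 20.7) and established Fosl-2(Tg) mice 22.2 to 30.3 CPM (median 26.9), each of the 7 exceeding the mean of the WT mice. The established log2 fold change was 0.33 ± 0.10, at an FDR of 0.0624 with edgeR and 0.035 with DESeq2 (0.035 to 0.155 over all alternatives), and the early one was -0.31 ± 0.17 (FDR 0.834). The difference between these effects was 0.63 ± 0.20 (FDR 0.0551). It passed the test in the fit with the replicate number as a block, at an FDR of 0.0165, and FDR ranged up to 0.367 over all alternatives.

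Of the transporter subunits, Tap1 had 3.93, 4.94 and 12.6 CPM as lowest, median and highest in early WT mice and 2.84, 4.07 and 5.34 CPM in early Fosl-2(Tg) mice. Among the older mice it had 6.26, 7.30 and 8.97 CPM in WT and 7.86, 8.73 and 20.8 CPM in Fosl-2(Tg) mice. Established Fosl-2(Tg) mouse 1 held the 20.8 CPM and the other mice of that group stayed at or below 9.21 CPM. The log2 fold change was -0.72 ± 0.25 early (unadjusted p = 0.0104, FDR 0.658) and 0.48 ± 0.22 established (FDR 0.173), and 0.22 in the established cohort without Fosl-2(Tg) mouse 1. The interaction was 1.19 ± 0.34 (FDR 0.0341). That call was lost when early WT mouse 1, 2 or 3, established WT mouse 1 or 2, or established Fosl-2(Tg) mouse 1 was left out, with FDR of 0.0521 to 0.0648.

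Tap2 pairs with Tap1 in the transporter. Its lowest, median and highest levels were 5.03, 8.41 and 18.0 CPM in early WT and 3.75, 5.70 and 11.4 CPM in early Fosl-2(Tg) mice. At the established stage they were 11.9, 12.8 and 15.2 CPM in WT and 13.9, 17.9 and 18.9 CPM in Fosl-2(Tg) mice. Of the latter, 4 exceeded the highest WT mouse and 7 of 7 the mean of the WT mice. Tap2 rose in the established cohort by a log2 fold change of 0.37 ± 0.10 (FDR 0.0379), against -0.68 ± 0.29 in the early cohort (unadjusted p = 0.0309, FDR 0.782). Over 10 other settings the established call passed in 7, at FDR of 0.00839 to 0.316, the highest with all 28 mice in 1 fit. It held in 4 of 13 fits with 1 mouse left out. It was lost without Fosl-2(Tg) mouse 1, 2, 3 or 4 or WT mouse 1, 2, 3, 5 or 6, at FDR of 0.0537 to 0.0833. The interaction was 1.05 ± 0.33 (FDR 0.0493) and passed in 7 of 28 such fits, with FDR up to 0.0968.

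Tapbp bridges the transporter and the empty heavy chain. It ran from 110 to 208 CPM (median 165) in early WT and from 119 to 224 CPM (median 145) in early Fosl-2(Tg) mice. Established mice ran from 157 to 217 CPM (median 201) in WT and from 75.7 to 191 CPM (median 147) in Fosl-2(Tg) mice. Each of these 7 Fosl-2(Tg) mice had less than the mean of the WT mice, although the groups overlapped. The log2 fold change was -0.41 ± 0.16 in the established cohort (FDR 0.134, 0.0451 with sex as a covariate and 0.0451 to 0.213 over all alternatives) and -0.11 ± 0.16 in the early cohort (FDR 0.927). Tapbp was the gene of the 10 whose interaction was below 0, at -0.30 ± 0.23 (FDR 0.428).

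The immunoproteasome subunits came next. Psmb8, also known as LMP7, had 1.62, 1.86 and 2.07 CPM as lowest, median and highest in established WT mice and 2.30, 2.66 and 3.85 CPM in established Fosl-2(Tg) mice. The groups did not overlap, which held in this direction for 1.48% of the genes tested and for no other of the 10. Psmb8 rose by a log2 fold change of 0.63 ± 0.15 (1.54-fold, FDR 0.0277). This call held in 10 of 13 fits with 1 mouse left out, and the FDR was 0.0571, 0.0644 and 0.0629 without WT mouse 1, 2 and 4, respectively. Over 10 other settings it passed in 8, at FDR of 0.00432 to 0.0795, the highest with the replicate block. In the early cohort Psmb8 had 1.39, 1.97 and 3.46 CPM in WT and 0.773, 1.44 and 2.13 CPM in Fosl-2(Tg) mice, which overlapped, with a log2 fold change of -0.72 ± 0.25 (unadjusted p = 0.0113, FDR 0.662). The interaction was 1.34 ± 0.30 (FDR 0.0102) and passed in all 28 fits with 1 mouse left out.

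Psmb9 (LMP2) had lowest, median and highest levels of 0.902, 1.40 and 2.98 CPM in early WT mice and 0.250, 0.917 and 1.26 CPM in early Fosl-2(Tg) mice. At the established stage they were 0.921, 1.26 and 1.95 CPM in WT and 1.41, 2.05 and 3.41 CPM in Fosl-2(Tg) mice. The mean of the WT mice was exceeded by 7 of 7 Fosl-2(Tg) mice there and by 0 of 8 in the early cohort. The log2 fold change was -0.88 ± 0.32 early (unadjusted p = 0.0151, FDR 0.727) and 0.68 ± 0.23 established (FDR 0.0839, 0.0411 with DESeq2 and 0.0411 to 0.154 over all alternatives). The interaction of 1.56 ± 0.41 (FDR 0.0233) passed in all 28 fits with 1 mouse left out.

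Nlrc5, which drives class I transcription, had its widest range among the established Fosl-2(Tg) mice. It ran from 2.00 to 4.87 CPM (median 2.91) in early WT, from 1.19 to 4.16 CPM (median 2.49) in early Fosl-2(Tg) and from 1.86 to 4.20 CPM (median 3.19) in established WT mice. In the established Fosl-2(Tg) mice it ran from 1.96 to 15.4 CPM (median 4.68), and mouse 1 held the highest value while the next mouse had 6.23 CPM. The established log2 fold change was 0.92 ± 0.39 (FDR 0.153), and 0.48 without that mouse. The early log2 fold change was -0.35 ± 0.24 (FDR 0.863) and the interaction was 1.26 ± 0.46 (FDR 0.0867).

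To see whether immunosubunits changed against the constitutive subunits that they replace, their read counts were divided within each library, which needs no scaling between libraries. Among established mice the log2 ratio of Psmb8 to Psmb5 was -3.29 ± 0.44 (SD, n = 6) in WT and -2.48 ± 0.58 (SD, n = 7) in Fosl-2(Tg) mice. The difference was 0.81, above the WT mean in 7 of 7 mice, with a two-sided exact permutation p of 0.0152 and 0.0629 after adjustment over the 6 ratio tests. Psmb9 to Psmb6 differed by 0.77 (exact p = 0.021, adjusted 0.0629) and Psmb10 to Psmb7 by 0.40 (exact p = 0.0979, adjusted 0.117), with 6 of 7 mice above the WT mean for both. None of the 6 ratios passed after adjustment. Established Fosl-2(Tg) mouse 5, the male of its group, had the lowest Psmb10 to Psmb7 ratio of any established mouse. In the females alone the differences were 0.87, 0.83 and 0.55, at adjusted p of 0.0325, 0.0325 and 0.0433, and without mouse 5 they were 0.93, 0.93 and 0.55, at adjusted p of 0.013, 0.013 and 0.0173 (exact permutation). That was the only 1 of 13 runs with 1 mouse left out in which each ratio passed. Over these runs adjusted exact p ranged up to 0.116, 0.116 and 0.221. Females alone were the only 1 of 3 other settings to pass, with adjusted exact p up to 0.145. In the early cohort the differences were -0.67 for Psmb8 to Psmb5, -0.85 for Psmb9 to Psmb6 and -0.004 for Psmb10 to Psmb7, with adjusted exact p of 0.116, 0.117 and 0.977. The constitutive subunits themselves had log2 fold changes of -0.03 in the early cohort for each of the 3, and of -0.24, -0.11 and -0.24 in the established cohort for Psmb5, Psmb6 and Psmb7.

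**Figure D3:**
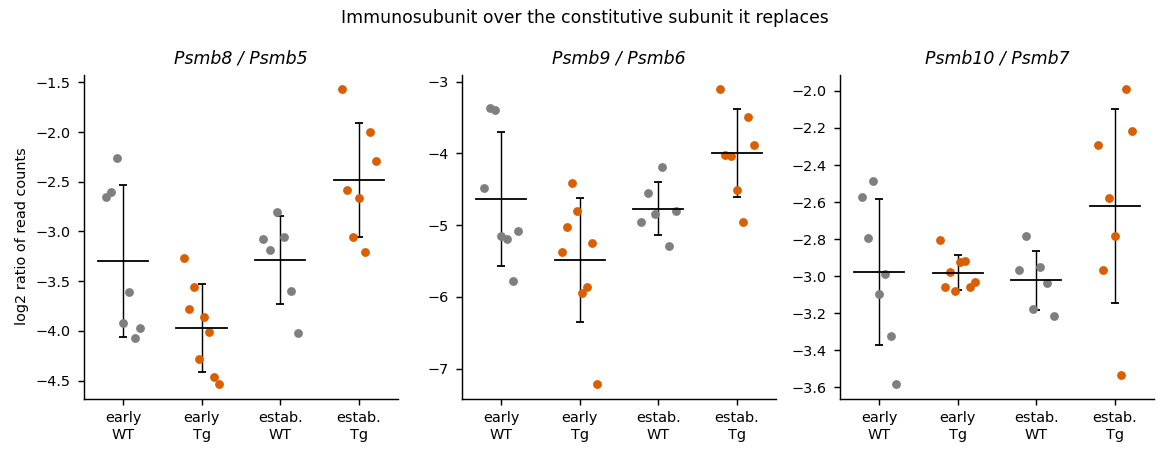
Log2 ratio of read counts (0.5 added to each) of each immunosubunit to the constitutive subunit that it replaces, per mouse, with WT in grey, Fosl-2(Tg) in orange and bars for the mean and the SD of a group. Established Fosl-2(Tg) mice have the higher mean for all 3 ratios, by 0.81, 0.77 and 0.40, and the groups overlap in each panel.

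The early comparison depended on 3 WT mice. In early WT mice 1 to 3, H2-D1 lay between 299 and 338 CPM, while WT mice 4 to 7 lay between 159 and 207 CPM and thus close to most of the Fosl-2(Tg) mice. Tap1 was 8.26 to 12.6 CPM in the first and 3.93 to 4.94 CPM in the second set, and Tap2 was 13.4 to 18.0 CPM against 5.03 to 8.41 CPM. Psmb8 was 2.81 to 3.46 CPM against 1.39 to 1.97 CPM. Of the 10 genes, 6 separated these mice without overlap (H2-D1, H2-T23, Tap1, Tap2, Tapbp and Psmb8), as did 16.5% of all genes tested. When the 3 mice were left out, the early log2 fold change was -0.09 for Tap1, -0.01 for Tap2, -0.25 for Psmb8 and -0.34 for Psmb9, and it was above 0 for H2-D1 (0.19), H2-T23 (0.05) and Tapbp (0.16). The interaction was then 0.58 for Tap1 (FDR 0.272), 0.39 for Tap2 (FDR 0.417), 0.89 for Psmb8 (FDR 0.0908) and 1.03 for Psmb9 (FDR 0.158), so the direction was kept and the calls were lost. The labels give no batch for these libraries, and the cause was not tested.

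Levels of immune cell markers were set beside these genes. The 15 macrophage markers summed to 852 to 1345 CPM in early WT and 710 to 1055 CPM in early Fosl-2(Tg) mice, with 1168 to 1345 CPM in early WT mice 1 to 3. Of the 15, 14 had a log2 fold change below 0 in the early cohort, 11 at an unadjusted p under 0.05 and none at an FDR of 0.05. Established mice summed to 677 to 948 CPM in WT and 826 to 1292 CPM in Fosl-2(Tg) mice, 14 of 15 lay above 0 and Cd163, a scavenger receptor of macrophages, rose by a log2 fold change of 1.07 ± 0.14 (FDR 0.00465). Most of the macrophage list thus had log2 fold changes of the same sign as Tap1, Tap2, Psmb8 and Psmb9 in both cohorts, and its part in their values was not tested. Markers of T and NK cells summed to at most 2.41 CPM for 12 genes. Cd3e reached at most 2 reads and had none in 17 of 28 mice, Cd3d at most 1 read with none in 25 mice, and Ifng at most 6 reads with none in 12 mice. Cd8a and Cd4, the coreceptors of T cells, were detected in every mouse, with 2 to 34 and 4 to 42 reads. The 6 B cell markers summed to 18.2 to 20.9 CPM in early WT mice 1 to 3 and to 5.09 to 6.82 CPM in early WT mice 4 to 7.

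Erythroid, dendritic cell, endothelial and skeletal muscle markers were set beside the 10 genes as well. Of the 6 erythroid markers, the 3 tested in the early cohort lay below 0 and the 4 tested in the established cohort above 0, none of them called, while 4 of 5 passed the interaction. Hbb-bs, a beta-globin, had log2 fold changes of -2.27 ± 0.58 early (FDR 0.442) and 3.06 ± 0.91 established (FDR 0.0594) and an interaction of 5.33 ± 1.11 (FDR 0.00693). The erythroid sum was 8.50 to 33.2 CPM in early WT, 7.79 to 11.3 CPM in early Fosl-2(Tg), 8.94 to 20.1 CPM in established WT and 10.3 to 127 CPM in established Fosl-2(Tg) mice, and 8.50 to 22.8 CPM in early WT mice 1 to 3. These signs were those of Tap1, Tap2, Psmb8 and Psmb9. The 7 dendritic cell markers, of which 3 were tested and none called, summed to 14.7 to 30.7 CPM in established WT and 24.7 to 50.2 CPM in established Fosl-2(Tg) mice, against 10.7 to 20.3 CPM in early WT and 8.86 to 15.7 CPM in early Fosl-2(Tg) mice. Of the 3 tested, 1 lay above 0 and 2 below 0 in the established cohort, and all 3 below 0 in the early cohort. All 12 skeletal muscle markers lay below 0 in the established cohort and 11 above 0 in the early cohort, with no call. They summed to 106 to 1382 CPM in early WT mice 1 to 3 and to 381 to 11383 CPM in early WT mice 4 to 7, and the 10 endothelial markers to 16.4 to 25.1 CPM and 36.9 to 80.5 CPM in these sets. With erythroid, muscle and keratinocyte markers removed from the count table, 0, 2 and 4 of the 10 genes passed in the early, established and interaction tests, as with them. That removal left the reads of the 10 genes unchanged, so it could not show the part of these cells in their values. The part of any of these cell types in the members' values was not tested.

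A further 70 genes of the pathway were examined as lists. Of 18 other class I heavy chains, 8 were tested, 7 of them lower in the early cohort, and none was called in either cohort. H2-Q4, a nonclassical chain, spanned 2.06 to 6.01 CPM in early WT and 1.77 to 4.16 CPM in early Fosl-2(Tg) mice, and 2.55 to 5.42 CPM in established WT and 4.03 to 7.58 CPM in established Fosl-2(Tg) mice, with an interaction of 1.03 ± 0.29 (FDR 0.0346). Hfe, a class I-like regulator of iron uptake, also passed the interaction (0.58 ± 0.17, FDR 0.0358). None of the 14 constitutive proteasome core genes was called, and their median log2 fold change was -0.02 early and -0.10 established. The 5 genes of the proteasome activator and immunoproteasome assembly list had no call either. Among 7 loading and trimming genes, Sec61a1, a subunit of the translocation channel, passed the interaction in the other direction (-0.57 ± 0.18, FDR 0.0466).

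Of the 16 tested genes of interferon-gamma signalling and class I regulation, 2 were called higher and none lower in the established cohort, where 3.14% of all genes were called higher and 3.37% lower. The log2 fold change was above 0 for 10 and below 0 for 6 of the 16, with a median of 0.08. Ifngr1, the ligand-binding chain of the interferon-gamma receptor, was 48.1 to 65.8 CPM in established WT (median 53.2) and 79.3 to 147 CPM in established Fosl-2(Tg) mice (median 91.9). The genotypes did not overlap, and Ifngr1 rose by a log2 fold change of 0.85 ± 0.14 (FDR 0.00929), against -0.25 ± 0.15 in the early cohort (FDR 0.847). Irf2, an interferon regulatory factor, was 21.1 to 27.1 CPM in established WT and 29.2 to 34.0 CPM in established Fosl-2(Tg) mice, again without overlap, and rose by 0.30 ± 0.07 (FDR 0.0288). Both passed the interaction, at 1.09 ± 0.21 (FDR 0.00498) and 0.54 ± 0.16 (FDR 0.0372). The early genes of the lists with the largest log2 fold change were Cd1d1 (0.59 ± 0.24, FDR 0.767), a lipid-presenting chain, H2-M3 (-0.54 ± 0.23, FDR 0.775), which presents formylated peptides, and H2-Q4 (-0.53 ± 0.22, FDR 0.775), and none passed. Among established mice Cd8a followed Ifngr1 and H2-Q4 with 0.49 ± 0.29 (FDR 0.289), at no more than 34 reads in a mouse.

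The 10 genes were then set against Fosl2 across the mice of each group, as log2 CPM. In the 8 early Fosl-2(Tg) mice Pearson r lay between -0.57 (H2-T23) and 0.39 (H2-K1), with a median of 0.08. In the 6 established WT mice it lay between -0.60 (Psmb8) and 0.57 (H2-K1), with a median of 0.24. In the 7 established Fosl-2(Tg) mice it lay between -0.88 (Nlrc5) and 0.64 (H2-D1), with a median of -0.39. For the early WT mice no r is given, since mice 1 to 3 formed a separate cluster for 6 of the 10 genes and neither cluster held enough mice. None of the 40 relations computed passed after adjustment, and the smallest adjusted exact permutation p was 0.135 for Pearson and 0.492 for Spearman. H2-K1, whose promoter drives the transgene, had r of 0.39 (exact p = 0.334), 0.57 (exact p = 0.229) and -0.12 (exact p = 0.827) in these 3 groups, with rho of 0.43, 0.14 and -0.46. Without the 2 mice farthest from the Fosl2 median, its r was 0.58, -0.35 and 0.50.

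In the established Fosl-2(Tg) mice 2 relations had an unadjusted exact p under 0.05, and both were negative with the library as the denominator. Nlrc5 had r = -0.88 (exact p = 0.00337, adjusted 0.135) and rho = -0.89 (exact p = 0.0123, adjusted 0.492), and r = -0.73 over the 5 mice left without the 2 farthest from the Fosl2 median. Tap1 had r = -0.68 (exact p = 0.0254, adjusted 0.508) and rho = -0.57 (exact p = 0.2), and r = -0.24 without these mice, so that relation rested on them. With Anxa5 as the denominator of both genes the direction turned for Tap1, to r = 0.87 (adjusted exact p = 0.0317). Anxa5 ranged from 106 to 259 CPM in these mice, more widely than Fosl2 at 121 to 160 CPM. A shared denominator raises r by itself, so that value cannot show a relation of Tap1 to Fosl2. Fosl-2(Tg) mouse 1 had the lowest Fosl2 of the group (121 CPM) and the highest Nlrc5 and Tap1, and without it r was -0.80 for Nlrc5 (exact p = 0.0528) and -0.45 for Tap1 (exact p = 0.356). Without it 3 positive relations had an unadjusted exact p under 0.05 over the other 6 mice, namely H2-D1 (r = 0.94, exact p = 0.0236), Tap2 (r = 0.92, exact p = 0.0222) and Tapbp (r = 0.73, exact p = 0.0472), with rho of 0.71, 0.83 and 0.66. With that mouse their r was 0.64, 0.43 and 0.54. No relation of any gene passed after adjustment in any of the 28 runs with 1 mouse left out.

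**Figure D4:**
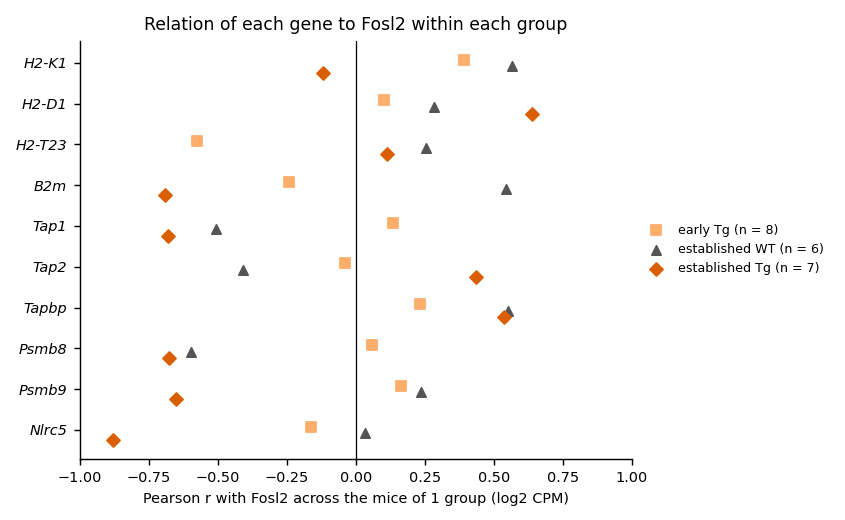
Pearson r of each of the 10 genes with Fosl2 across the mice of 1 group, on log2 CPM, for early Fosl-2(Tg), established WT and established Fosl-2(Tg) mice. The points lie on both sides of 0 within each group, from -0.88 for Nlrc5 to 0.64 for H2-D1 in the established Fosl-2(Tg) mice.

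Finally, the 10 genes were compared with each other over the 28 mice after the mean of each group had been subtracted. Of 45 pairs, 36 had r above 0 and 21 had r above 0.5, with a median of 0.44. These values share libraries and the early WT mice described above, and are given as a description. The highest r were those of H2-D1 with Tapbp (0.86), H2-T23 with Tap2 (0.85), H2-D1 with Tap2 (0.84) and Tap1 with Tap2 (0.79). Tap1 and Psmb9, which start from the same stretch of DNA, had r = 0.70. B2m stood apart, and its lowest r were with Psmb8 (-0.42), Tap2 (-0.31) and H2-D1 (-0.29), its own heavy chain partner.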

How the data were processed

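Total RNA of whole tail tendon fascicles from 28 mice was sequenced after ribosomal RNA depletion. The authors aligned the reads with STAR to GRCm39 with GENCODE annotation and obtained reads per gene from featureCounts. Raw counts were deposited, before any scaling or filter. Strand and multi-mapping settings are not given in the sources used here. Of the 25719 identifiers 25505 were named with a later GENCODE release.

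Groups and replicate numbers came from the sample labels, which give no culture or batch. Genotypes were compared within each cohort with the quasi-likelihood test of edgeR 4.0.16 (R 4.3.3) after TMM scaling and filterByExpr (minimum count 10, minimum total 15), with Benjamini-Hochberg adjustment across the tested genes and calls at an FDR of 0.05. The interaction was fitted over all 28 mice. Log2 CPM used a prior count of 2. Ratios and relations to Fosl2 were tested by two-sided exact permutation with SciPy 1.17.1. Alternatives were DESeq2 1.42.0, limma 3.58.1 voom, other scaling and filters, a replicate block, other samples and each mouse left out; the fits without early WT mice 1 to 3 were chosen after seeing the data. The fits were tested on simulated counts with 200 genes changed. At a log2 fold change of 1, edgeR recovered 84.62%, 70.15% and 45.45% of them in the early, established and interaction tests. False calls were 4.74%, 4.84% and 7.14% of its calls. In the simulation early WT mice 1 to 3 did not stand apart. Deviations from the group mean had r of 0.13 to 0.36 between same-numbered early mice over 7 pairs. Of the 7 WT mice, 0 correlated best with the Fosl-2(Tg) mouse of their own number. The labels give no shared litter.

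The 10 genes and all lists were chosen with earlier results of these data known. Named are these genes, Fosl2, listed pathway genes called in a comparison or with the 3 largest fold changes per cohort, the subunits of the ratios, and the 5 genes most like H2-K1. Marker genes are named only where their list moved with a result. Promoter windows are from RefSeq (GRCm38.p6), with no entry for Tap2 or Nlrc5. P-values measure the spread between mice of a group.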

Additional observations from a re-analysis of the deposited data

Results flagged for a closer look

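Of the members' values, 3 stood apart from the other mice of their group by more than the critical gap for a group of that size, out of 40 groups of a gene and a cohort and genotype examined; chance alone gives this in about 1 in 20 groups. H2-D1 was 344 CPM in early Fosl-2(Tg) mouse 1, against at most 204 CPM in the other 7. Tap1 was 20.8 CPM in established Fosl-2(Tg) mouse 1, against at most 9.21 CPM in the other 6. Nlrc5 was 15.4 CPM in the same mouse, against at most 6.23 CPM. That mouse had the median macrophage marker sum of its group (1063 CPM) and the lowest T and NK cell marker sum (1.03 CPM), and its erythroid marker sum was 47.5 CPM, against a group median of 17.5 CPM.

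For 4 genes the genotype effect differed between the cohorts by the interaction test of edgeR. The established minus the early log2 fold change was 1.19 for Tap1, 1.05 for Tap2, 1.34 for Psmb8 and 1.56 for Psmb9. Each of these differences joins a negative early value to a positive established value, and stage cannot be told apart from sex, since all early mice were male and 11 of 13 established mice were female. None of the 4 passed without early WT mice 1 to 3, where the differences were 0.58, 0.39, 0.89 and 1.03.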

How the results depend on the processing

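The early comparison called none of the 10 genes under any alternative tried. In the established cohort 2 of the 10 genes passed, against 4 with DESeq2 (Psmb8, Tap2, H2-T23 and Psmb9), 1 without the filter, 0 with the replicate block, 0 with all 28 mice in 1 fit, and 0 to 3 with 1 mouse left out. For the interaction 4 passed, against 0 without early WT mice 1 to 3, 0 without these and early Fosl-2(Tg) mouse 1, 2 without the 2 established males, 5 with the replicate block, and 2 to 5 with 1 mouse left out. Established mice share only a number (r from -0.22 to 0.69 over 6 pairs, 2 of 6 WT mice correlating best with their own number). The block fit kept only numbers present in both genotypes, and so left out established Fosl-2(Tg) mouse 7 and early Fosl-2(Tg) mouse 8. In it the established log2 fold change was 0.58 for Psmb8 (FDR 0.0795) and 0.40 for Tap2 (FDR 0.0649). The cause of these moves was not tested. Over all genes the block moved the calls from 6 to 11 early, from 1032 to 914 established and from 1195 to 2057 for the interaction, while DESeq2 called 25, 2177 and 1780 and limma voom 10, 1984 and 1951. Females alone gave 560 established calls, all 28 mice in 1 fit 1663, and without early WT mice 1 to 3 the early calls were 0 and the interaction calls 170. With 1 mouse left out they ranged from 4 to 12, 361 to 1166 and 702 to 1876.

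Fold changes near 0 changed sign. Without early WT mice 1 to 3 the early values were 0.19 for H2-D1, 0.048 for H2-T23 and 0.16 for Tapbp, and without early Fosl-2(Tg) mouse 1 as well 0.043 for H2-D1 and 0.065 for Tapbp, while the H2-D1 interaction was -0.34 and -0.19. With the replicate block the established H2-K1 value was -0.014 and the H2-D1 interaction -0.006, and limma voom gave -0.06 for the B2m interaction. With 1 mouse left out, B2m ranged from -0.26 to 0.021 early, from -0.19 to 0.001 established and from -0.14 to 0.19 for the interaction, established H2-K1 from -0.009 to 0.075 and the H2-D1 interaction from -0.027 to 0.21.

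The established ratios passed in the females alone, at 0.87 for Psmb8 to Psmb5, 0.83 for Psmb9 to Psmb6 and 0.55 for Psmb10 to Psmb7. They also passed without established Fosl-2(Tg) mouse 5, and in no other run with 1 mouse left out. Over those runs they ranged from 0.66 to 0.93, from 0.62 to 0.93 and from 0.29 to 0.55. The early Psmb10 to Psmb7 difference ranged from -0.11 to 0.077, was 0.27 without early WT mice 1 to 3 (adjusted exact p = 0.0444) and 0.24 without early Fosl-2(Tg) mouse 1 as well. With Anxa5 as the denominator in place of the library, 4 of the 40 relations to Fosl2 passed, all positive and in established Fosl-2(Tg) mice (H2-T23, Tap1, Tap2 and Psmb8). Tap1 and Psmb8 turned from r = -0.68 and -0.68 to 0.87 and 0.84. Both values of each relation are divided by the same gene, which raises r by itself, so these 4 cannot show a relation to Fosl2. Of the 5 genes most like H2-K1, 2 remained with library-size CPM. Psmb8 and Psmb9 counts of 3 to 126 reads per mouse limit what their values can show. Other settings left the counts of the 10 genes within 1.5 times.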

Other observations

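The 5 genes whose levels were most like those of H2-K1 over the 28 mice, after subtraction of group means and among 14571 genes with a mean of at least 1 CPM, were Unc93b1 (r = 0.79), Pltp (0.75), Metrnl (0.74), Selplg (0.73) and Tgfb1 (0.72). Unc93b1 carries nucleic acid-sensing Toll-like receptors to endosomes, Pltp transfers phospholipids between lipoproteins, Selplg is the ligand of P-selectin on leukocytes and Tgfb1 encodes the cytokine TGF-beta 1. With library-size CPM in place of TMM scaling, Unc93b1 ranked 1 and Metrnl 3, whereas Pltp ranked 332, Selplg 783 and Tgfb1 836. Of the other class I presentation genes, Psmb8 (r = 0.65) ranked 84, Tapbp (0.61) ranked 202 and H2-D1 (0.59) ranked 288. Tap1 (0.43), Tap2 (0.39), H2-T23 (0.31), Nlrc5 (0.30) and Psmb9 (0.20) were less alike, and B2m, the partner chain of H2-K1, had r = -0.19. Fosl2 ranked 3171, with r = 0.30. These values share libraries, depth and the early WT mice that stood apart, and are given as a description.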
